A study of Mus musculus with 121 samples.

Results

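The Nduf genes, which encode the nuclear subunits of respiratory complex I and several of its assembly factors, were followed in mouse erythroid cells from which the transcription factor YY1 was removed. Members were all gene symbols that start with Nduf, without names containing -ps, which mark pseudogenes. This gave 52 symbols of 55351 in the RNA-seq time series (49 tested of 15157), 48 of 25208 in TT-seq (45 tested of 11218) and 42 of 22493 in a table of untreated lines (42 tested of 10892). In all, 42 symbols were listed in every table. Ndufa11b, Ndufb11b and Ndufs6b were too low to be tested in the time series, and Ndufa11b was in TT-seq, where Ndufb4c and Ndufs5 are listed at 0 in every library.

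The cells were G1E-ER4, a line of erythroid progenitors derived from mouse embryonic stem cells. It lacks functional GATA1 and carries a hormone-activated form of it, and the labels name no hormone treatment. In its YY1-AID subline YY1 carries an auxin-inducible degron, a tag through which the protein is broken down once auxin is added. Steady-state RNA was sequenced in the asynchronous YY1-AID subline at 0, 4, 24 and 48 h of auxin (3 libraries each). RNA-seq of cells without treatment covered the parental line, the YY1-AID subline and YY1-AID subline 3 (2 libraries each). TT-seq, which sequences RNA made during a brief pulse of 4-thiouridine, covered the YY1-AID subline untreated and after 4 h of auxin (3 libraries each). The depletion was thus studied in 1 edited subline. The series held no cells kept for 24 or 48 h without auxin, so auxin and time in culture cannot be told apart. No RNA-seq or TT-seq library came from auxin-treated cells without the YY1 degron, so auxin itself and loss of YY1 cannot be told apart. The labels do not say that replicates are separate cultures, so p-values measure the spread between these libraries, which may be technical.

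Complex I takes electrons from NADH, passes them along a chain of iron-sulfur clusters in its matrix arm to ubiquinone, and pumps protons through its membrane arm. Conserved core subunits carry out catalysis, accessory subunits surround them, and assembly factors join the modules without staying in the finished enzyme. Erythroid precursors depend on mitochondria for heme synthesis as well as for energy, and lose them late in maturation.

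Depth was even in the time series (25.1 to 26.2 M gene counts a library) and more variable among the untreated lines (35.2 to 44.9 M) and in TT-seq (30.2 to 53.5 M). The Nduf genes took 0.323% to 0.382% of the counts in the time series and 0.0944% to 0.128% in TT-seq. The TT-seq share also depends on the single entry Rn45s, which took 22.2% to 38.8% of the counts there. Erythroid markers summed to between 3561 and 5522 CPM (counts scaled to a common library size) in the time series. There 5 myeloid markers summed to between 26.6 and 40.1 CPM, although Cebpa among them was at 0 in every library. The 3 mast cell markers summed to between 36.1 and 85.6 CPM. Lymphoid markers summed to at most 0.12 CPM and pluripotency markers, with Sox2 at 0 throughout, to at most 0.97 CPM. From 0 to 48 h the summed megakaryocyte markers moved from between 38.3 and 52.3 to between 210 and 249 CPM. Of the 4 markers 2 passed the test, both higher (log2 fold changes of 2.71 for Itga2b and 3.62 for Gp9). The 4 did not move alike: the lowest was at −1.56 and did not pass the test. Of 10 erythroid markers tested at 48 h, 4 were higher, among them Slc4a1 (2.85), and 3 lower, among them Epor (−0.57). The 1 mast cell marker tested was higher (0.66), and the 1 myeloid marker tested was not called (0.19). The part of this shift in the Nduf results was not tested, and in bulk libraries fewer cells of a type and less RNA per cell cannot be told apart. Yy1 RNA itself did not pass the test at any time (0.11 ± 0.09 at 4 h), which says nothing about a protein removed after translation. Each log2 fold change is printed with ± its standard error, and a gene was called higher or lower where its adjusted p (edgeR, over all genes tested) was under 0.05.

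Nascent RNA of 6 Nduf genes fell within 4 h of auxin, and that of none rose. These were the assembly factor Ndufaf6, the matrix arm subunits Ndufs4, Ndufa5 and Ndufa7, and the membrane arm subunits Ndufb5 and Ndufb4. The 6 are of 45 tested, where 9.2% of all genes tested were called, 7.09% lower and 2.11% higher. At an unadjusted p under 0.05, 13 members were lower and 0 higher, where 23.8% of all genes had such a p in either direction. DESeq2 called 8 lower and 0 higher, and 8.99% of all genes lower. The median log2 fold change of the 45 members was −0.14, with 36 below 0, against 0.02 for all genes tested.

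Ndufaf6, a factor needed for early assembly of the complex, had the largest fall among the members. Its TT-seq level was 26.2, 23.3 and 24.6 CPM in the untreated libraries and 8.36, 8.71 and 10.2 CPM after auxin (replicates 1 to 3). The groups lay far apart, and the log2 fold change was −1.44 ± 0.11 (adjusted p = 0.000278).

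Ndufb5, of the membrane arm, went from 28.6, 30.4 and 28.5 CPM to 19.8, 20.8 and 18.2 CPM in TT-seq, a log2 fold change of −0.57 ± 0.09 (adjusted p = 0.00667). Ndufs4, an accessory subunit whose loss in humans causes Leigh syndrome, had 124, 163 and 145 CPM before auxin and 95.8, 117 and 96.2 CPM after it. This was a fall of −0.48 ± 0.12 (adjusted p = 0.0459), close to the threshold. Within each of these genes every auxin library was below every untreated one.

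Ndufa5, an accessory subunit of the arm that binds ubiquinone, had 26.3, 23.0 and 23.0 CPM without auxin and 18.1, 17.1 and 17.5 CPM with it (−0.46 ± 0.09, adjusted p = 0.0224). Ndufb4 fell from 17.8, 17.3 and 17.0 to 12.7, 12.4 and 13.5 CPM (−0.43 ± 0.09, adjusted p = 0.025). Ndufa7 had 29.9, 31.1 and 30.0 CPM against 23.9, 24.1 and 23.0 CPM (−0.36 ± 0.08, adjusted p = 0.0278). These 3 genes had narrow groups that did not overlap. Leaving out any of the 6 libraries lowered the count of 6 by more than 1.5 times except for auxin replicate 1 (4 lower): 3 were lower without auxin replicate 2, untreated replicate 1 or untreated replicate 2, and 2 without auxin replicate 3 or untreated replicate 3.

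TT-seq libraries with the same replicate number deviated together, and with that number as a term in the fit 22 of the 45 members were lower and 2 higher, against 25.3% and 22.7% of all genes tested. All 6 genes named above were among the 22. By role the lower calls were 5 of 7 core subunits, 6 of 9 matrix arm and 7 of 18 membrane arm accessory subunits, the acyl carrier protein Ndufab1, 2 of 8 assembly factors and Ndufa4l2. Both higher calls were assembly factors, Ndufaf1 (0.20 ± 0.08) and Ndufaf2 (0.14 ± 0.05). Scaling by spike-in reads in place of TMM factors ended every call: by edgeR 1 of all 11218 genes was called, 0 members were lower, 0 had an unadjusted p under 0.05, and the median was −0.19 with 39 of 45 values below 0. With spike-in sizes and the replicate term together 21 were lower, against 21.5% lower and 10.1% higher of all genes.

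Ndufc1, a small membrane arm subunit, shows what the pairing changes. Its TT-seq level was 9.99, 6.81 and 7.37 CPM without auxin and 6.58, 3.55 and 4.92 CPM with it. The level was lower in each of the 3 pairs, but replicate 1 with auxin came near the untreated replicates 2 and 3. Its log2 fold change was −0.70 ± 0.24 without the replicate term (adjusted p = 0.121) and −0.72 ± 0.10 with it (adjusted p = 2.34e-09). Ndufb8, another membrane arm subunit, had 32.4, 22.0 and 26.8 CPM against 24.4, 14.9 and 19.4 CPM, and changed from −0.47 ± 0.20 (adjusted p = 0.194) to −0.48 ± 0.06 (adjusted p = 5.63e-12).

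**Figure D1:**
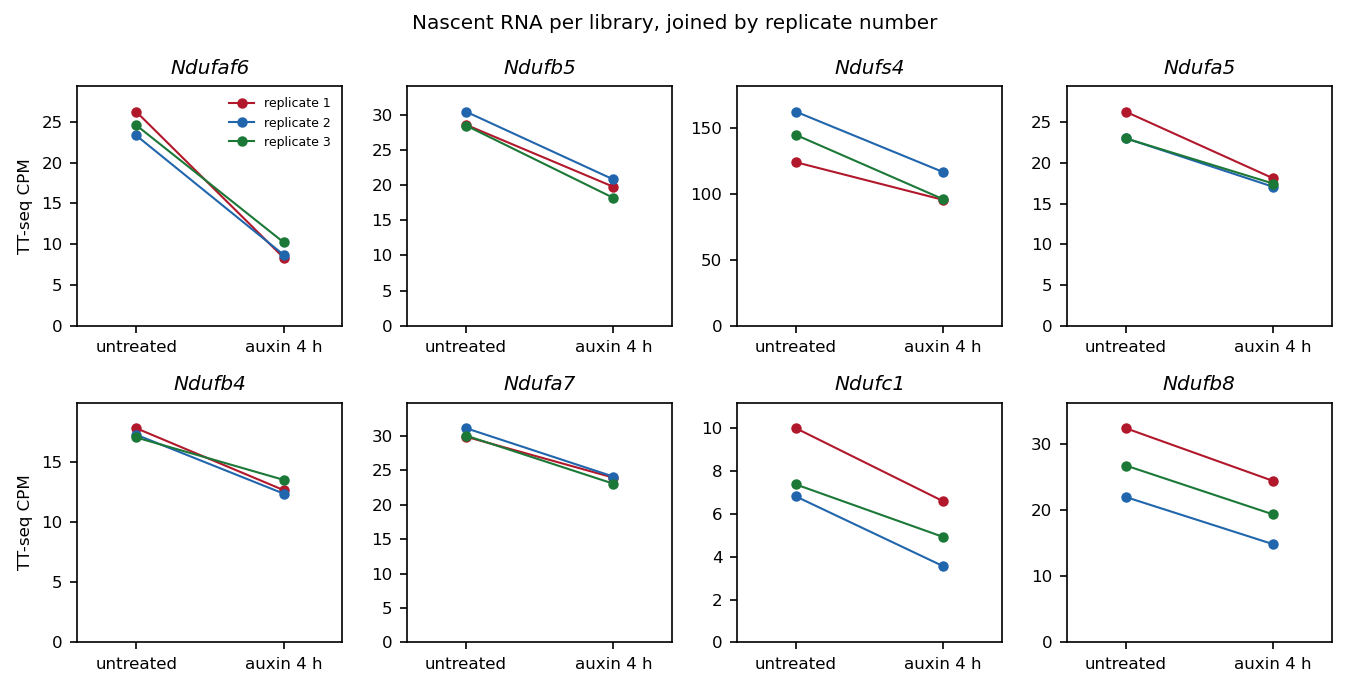
TT-seq level (CPM, vertical axis from 0) of 8 Nduf genes in each library before and after 4 h of auxin, with lines joining libraries of the same replicate number. All lines go down, and in Ndufc1 and Ndufb8 the spread between replicates is about as wide as the fall within a pair.

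Steady-state RNA had barely moved at 4 h. Of 49 members tested 1 was lower and 0 were higher, against 7.28% called (4.14% lower and 3.14% higher) of all genes tested, and the median log2 fold change was −0.03 against 0.01. At an unadjusted p under 0.05, 4 members were lower and 1, the assembly factor Ndufaf4, was higher (0.25 ± 0.10, adjusted p = 0.135). Of all genes tested 21.6% had such a p in either direction. DESeq2 called 1 member lower and 0 higher, and 6.93% of all genes lower and 4.39% higher. The 1 lower gene was Ndufaf6. Its levels were 14.1, 13.3 and 16.6 CPM at 0 h and 9.21, 8.30 and 9.58 CPM at 4 h, with no overlap, a log2 fold change of −0.70 ± 0.12 (adjusted p = 0.00436). The other 5 genes called in TT-seq were at −0.15 ± 0.07 (Ndufb5), −0.15 ± 0.08 (Ndufa5), −0.08 ± 0.09 (Ndufs4), −0.05 ± 0.15 (Ndufb4) and 0.02 ± 0.06 (Ndufa7), none past the threshold.

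After 24 h of auxin 22 members were lower and 1 was higher, against 43% called (21.5% lower and 21.5% higher) of all genes tested. Their median log2 fold change was −0.19 against 0.03 for all genes tested, and 40 of 49 values were below 0. After 48 h 33 were lower and 1 was higher, against 49.5% called (24.6% lower and 24.9% higher), with a median of −0.38 against 0.03 and 43 values below 0. All 22 genes lower at 24 h were lower at 48 h too, and 11 more joined them: Ndufa12, Ndufa4, Ndufa8, Ndufa9, Ndufaf5, Ndufaf8, Ndufb10, Ndufb2, Ndufb6, Ndufs8 and Ndufv1. The 4, 24 and 48 h comparisons share the 0 h libraries.

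**Figure D2:**
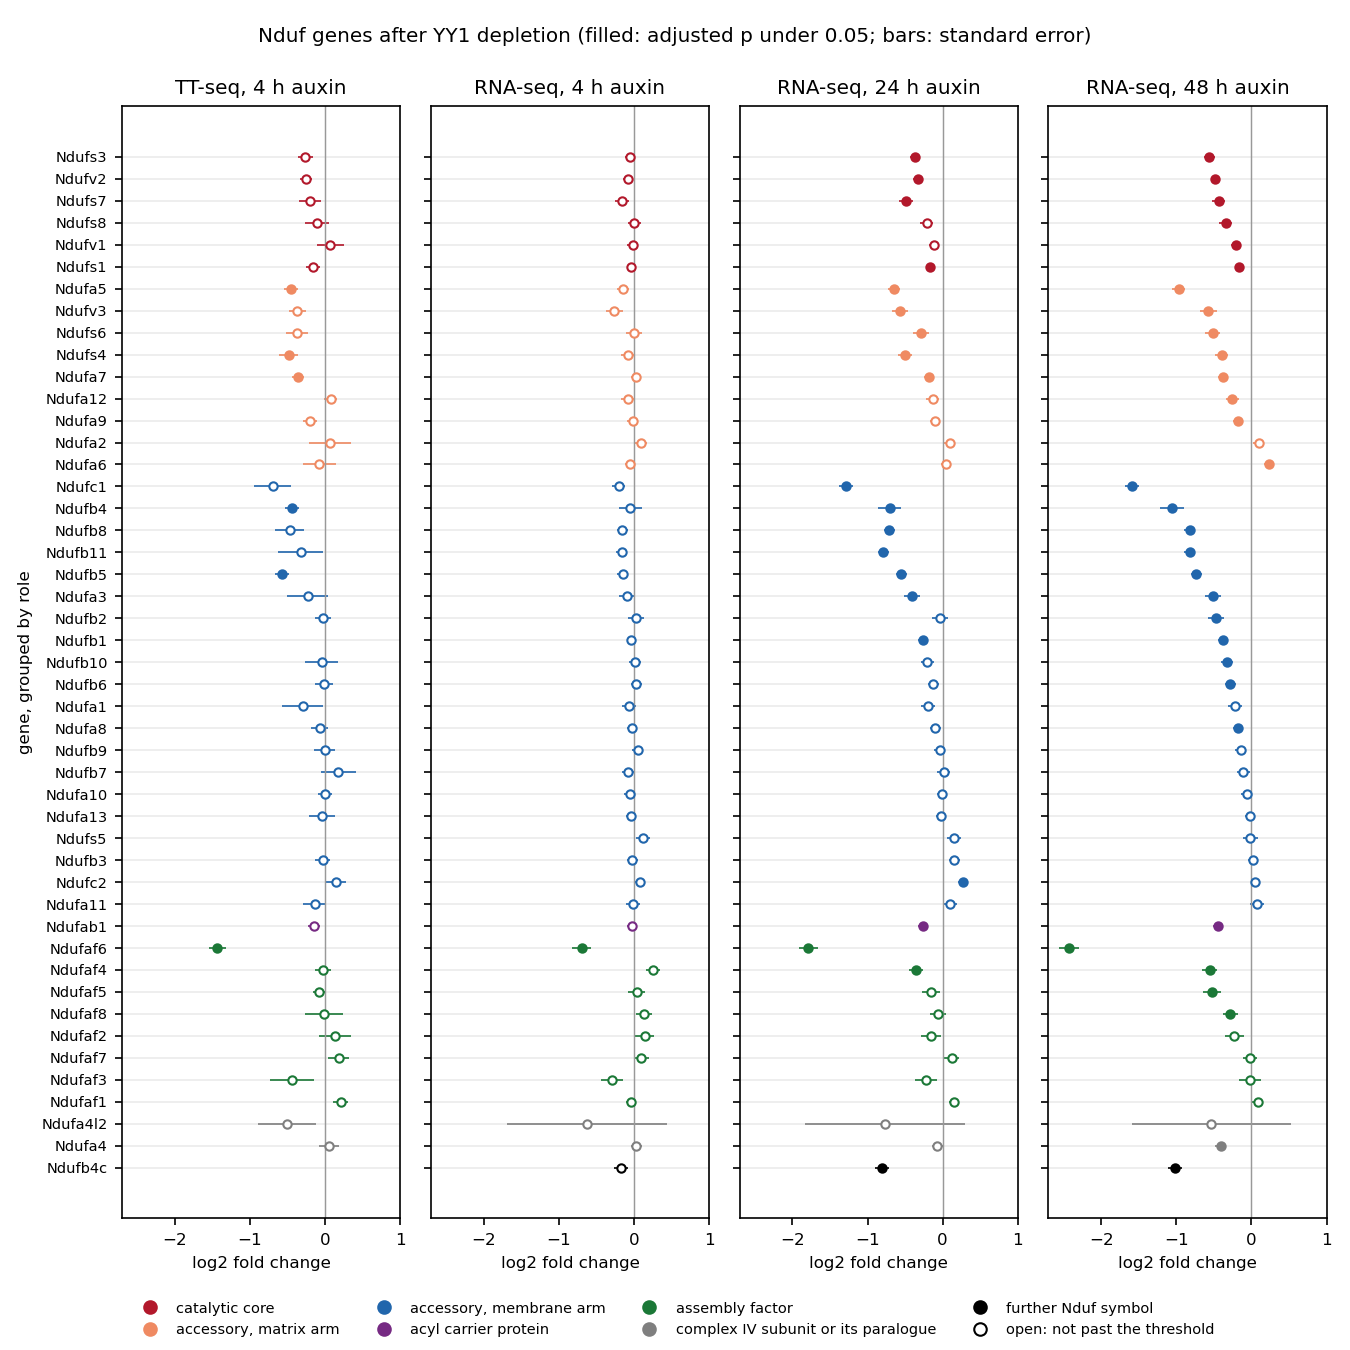
Log2 fold change (horizontal axis) of Nduf genes after auxin in TT-seq at 4 h and in RNA-seq at 4, 24 and 48 h, grouped by role and ordered within a role by the 48 h value. Filled points passed the threshold, bars are standard errors, and Ndufb4b and 1 gene not reported singly are left out. Most points move left between 4 and 48 h, with Ndufaf6 and Ndufc1 farthest.

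All 7 core subunits were lower at 48 h and 5 of them at 24 h, against 24.6% and 21.5% of all genes tested. The falls were modest (medians of −0.41 and −0.33). Ndufs3 had 95.2, 99.4 and 102 CPM at 0 h, 74.8, 79.3 and 76.7 at 24 h and 60.3, 72.6 and 68.7 at 48 h. The 0 h libraries were above all 24 and 48 h ones, and its 48 h value of −0.56 ± 0.07 (adjusted p = 1.68e-05) was the lowest of the core. Ndufs7, which lines the ubiquinone site, was at −0.44 ± 0.09, and Ndufv2, an iron-sulfur subunit of the NADH-oxidising module, at −0.48 ± 0.06. Ndufs8 was at −0.34 ± 0.09.

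The highest expressed member was the core iron-sulfur subunit Ndufs1, whose fall was small. It had 349, 346 and 364 CPM at 0 h, 311, 327 and 308 at 24 h and 291, 330 and 321 at 48 h. No 24 or 48 h library reached the 0 h range, and the values were −0.16 ± 0.06 at 24 h and −0.17 ± 0.06 at 48 h (adjusted p = 0.0242). Ndufv1, which binds NADH, had 163, 160 and 183 CPM at 0 h and 138, 158 and 143 at 48 h (−0.20 ± 0.07, adjusted p = 0.0277). The 48 h call of Ndufs1 was lost without 0 h replicate 3 (adjusted p = 0.0557 by edgeR), without 48 h replicate 1 (0.0694) and without the filter on low counts (0.0508). That of Ndufv1 was lost without 0 h replicate 3 (0.0926), 48 h replicate 1 (0.0793) or 48 h replicate 3 (0.0793). The 24 h call of Ndufs1 (adjusted p = 0.0304) was lost without 0 h replicate 3 (0.0792), 24 h replicate 1 (0.0568), 24 h replicate 3 (0.0661) or the filter (0.0679).

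Of the 9 accessory subunits of the matrix arm, 7 were lower and 1 higher at 48 h, against 24.6% and 24.9% of all genes tested. At 24 h 5 of the 9 were lower, against 21.5% of all genes. Ndufa5 fell most, with 58.1, 52.1 and 61.7 CPM at 0 h, 37.4, 37.1 and 35.4 at 24 h and 26.1, 30.6 and 31.1 at 48 h. Its groups followed each other without overlap, at −0.65 ± 0.08 (adjusted p = 4.77e-05) and −0.97 ± 0.09 (adjusted p = 1.02e-06). Ndufv3 was at −0.57 ± 0.11 at both times, Ndufs6, a zinc-binding subunit, at −0.52 ± 0.10 at 48 h, and Ndufs4 at −0.50 ± 0.09 and −0.40 ± 0.09. Ndufs6 had 24.8, 24.9 and 25.0 CPM at 0 h and 17.6, 22.8 and 20.8 at 24 h (−0.29 ± 0.10, adjusted p = 0.0368), a call lost without any 1 of the 0 h replicates, 24 h replicate 1 or 24 h replicate 3 (adjusted p of 0.0569 for Ndufs6 without the last and 0.13 without 24 h replicate 1).

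Smaller falls in this arm were those of Ndufa7, Ndufa9 and Ndufa12. Ndufa7 had 73.4, 73.7 and 77.6 CPM at 0 h, 62.9, 70.2 and 65.2 at 24 h and 56.5, 61.5 and 54.8 at 48 h, or −0.18 ± 0.06 and −0.38 ± 0.06. Ndufa9 had 105, 115 and 118 CPM at 0 h and 97.1, 108 and 92.6 at 48 h, groups that overlapped (−0.18 ± 0.07, adjusted p = 0.0415). Ndufa12 had 58.1, 61.0 and 62.8 against 44.1, 57.5 and 50.7 CPM (−0.26 ± 0.09, adjusted p = 0.0277), and the table lists a pseudogene, Ndufa12-ps, that may share its reads. The 24 h call of Ndufa7 and the 48 h calls of Ndufa9 and Ndufa12 were each lost without 0 h replicate 3 (adjusted p of 0.101, 0.108 and 0.0673), without replicate 1 of the later time (0.104, 0.0796 and 0.0937) and without its replicate 3 (0.0743, 0.157 and 0.063). Ndufa9 also lost its call without 0 h replicate 2 (0.0782), and without the filter the adjusted p was 0.0927 for Ndufa7 and 0.0543 for Ndufa9.

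Ndufa6 was the only member higher at 48 h in this fit. It had 87.0, 87.4 and 92.4 CPM at 0 h, 83.5, 95.2 and 96.6 at 24 h and 102, 112 and 101 at 48 h. The 48 h libraries were above all 0 h libraries (0.23 ± 0.07, adjusted p = 0.0107). Without 48 h replicate 2 the adjusted p was 0.0588, so this call rested on that library. Ndufa2 did not pass the test at 48 h (0.09 ± 0.07).

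Accessory subunits of the membrane arm ranged from −1.59 to 0.08 at 48 h, with 11 of 20 lower, against 24.6% of all genes tested. At 24 h 7 of the 20 were lower and 1 higher, against 21.5% and 21.5% of all genes. Ndufc1 had 36.0, 44.0 and 42.6 CPM at 0 h, 15.5, 17.8 and 16.9 at 24 h and 13.5, 14.4 and 12.8 at 48 h. Its level thus came down to well under that of any 0 h library, with −1.28 ± 0.09 (adjusted p = 3.01e-07) and −1.59 ± 0.09 (adjusted p = 3.47e-08).

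Ndufb8 had 147, 143 and 162 CPM at 0 h, 87.7, 97.0 and 91.3 at 24 h and 77.6, 94.5 and 83.3 at 48 h, or −0.71 ± 0.08 and −0.82 ± 0.08 (adjusted p = 1.44e-06 at 48 h). Ndufb11, encoded on the X chromosome, had 65.7, 69.8 and 71.7 CPM at 0 h, 38.2, 42.3 and 39.6 at 24 h and 36.0, 42.7 and 38.4 at 48 h. In both genes most of the fall was complete by 24 h, and the 24 and 48 h groups overlapped. Ndufb11 was at −0.79 ± 0.07 and −0.82 ± 0.08 (adjusted p = 1.35e-06 at 48 h). Ndufb5 was at −0.55 ± 0.07 and −0.73 ± 0.07, and Ndufa3 at −0.40 ± 0.10 and −0.51 ± 0.10.

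Ndufb1 showed a smaller fall, from 125, 122 and 119 CPM at 0 h to 97.9, 102 and 104 at 24 h (−0.27 ± 0.06) and −0.39 ± 0.06 at 48 h. Ndufa8, on the intermembrane face, had 94.6, 99.0 and 104 CPM at 0 h and 84.4, 93.2 and 85.2 at 48 h (−0.18 ± 0.07, adjusted p = 0.0455). This call of Ndufa8 was lost without 0 h replicate 2 (0.0624) or 3 (0.116), 48 h replicate 1 (0.101) or 3 (0.125), or the filter (0.064). Ndufc2, the partner subunit of Ndufc1, went the other way at 24 h. It had 62.0, 63.1 and 67.0 CPM at 0 h and 76.0, 79.6 and 75.5 at 24 h, groups that did not overlap (0.27 ± 0.06, adjusted p = 0.0029). At 48 h Ndufc2 had 67.5, 65.7 and 65.7 CPM, within reach of the 0 h libraries (0.05 ± 0.06).

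The 9 membrane arm subunits not past the threshold at 48 h lay between −0.22 (Ndufa1) and 0.08 (Ndufa11). Ndufa10, an accessory subunit with a kinase-like fold, had 270, 292 and 323 CPM at 0 h and 268, 297 and 283 at 48 h (−0.06 ± 0.07). Ndufa13, also known as GRIM-19, had 83.1, 82.0 and 86.2 against 78.9, 87.6 and 80.8 CPM (−0.02 ± 0.07). Their groups overlapped, with standard errors as narrow as those of the subunits that fell. Ndufs5 was at −0.01 ± 0.10, with a listed pseudogene, Ndufs5-ps, that may share its reads. In TT-seq Ndufs5 was listed at 0 in all 6 libraries, although its steady-state level was between 25.7 and 34.3 CPM. No source used here says whether the TT-seq counting covered this gene, so the 0 is not read as a level.

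The Ndufb4 symbols Ndufb4, Ndufb4b and Ndufb4c are near-identical copies whose estimated counts can be split arbitrarily, so each alone is uncertain. Ndufb4 had 12.8, 13.0 and 14.8 CPM at 0 h, 7.38, 8.12 and 9.41 at 24 h and 8.30, 5.27 and 5.97 at 48 h (−0.71 ± 0.15 and −1.05 ± 0.16). Ndufb4c had 41.7, 42.9 and 43.2 CPM, then 22.8, 26.5 and 23.6, then 18.0, 23.9 and 21.2 (−0.81 ± 0.10 and −1.02 ± 0.10). Ndufb4b had 46, 50 and 54 counts at 0 h, 0, 72 and 84 at 4 h, and 0 in every 24 and 48 h library, at least 18.1-fold lower at 24 h against a floor of 3 counts per library. Summed, which was chosen after seeing these values, the copies had 56.4, 57.9 and 60.1 CPM at 0 h and 52.3, 53.9 and 52.8 at 4 h. The sum was 30.2, 34.6 and 32.9 CPM at 24 h and 26.3, 29.2 and 27.1 at 48 h. The summed copies were at −0.13 ± 0.07 at 4 h (adjusted p = 0.286), −0.84 ± 0.07 at 24 h and −1.08 ± 0.07 at 48 h, and the lower calls became 20 at 24 h and 31 at 48 h of 47. Medians of the members were the same with Ndufb4b at its bound.

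Ndufab1, the acyl carrier protein that also serves mitochondrial fatty acid synthesis, had 126, 134 and 145 CPM at 0 h and 104, 122 and 111 at 24 h. It then stood at 95.8, 104 and 96.5 CPM at 48 h. Its groups did not overlap with 0 h at either time (−0.26 ± 0.07 and −0.45 ± 0.07). A pseudogene, Ndufab1-ps, is listed and may share its reads.

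Assembly factors were mixed, with 4 of 8 lower at 48 h and 2 at 24 h, against 24.6% and 21.5% of all genes tested. Ndufaf6 continued down to 4.18, 4.17 and 4.37 CPM at 24 h and 2.79, 2.47 and 2.91 CPM at 48 h. The 4 times formed a descending series without overlap, with −1.79 ± 0.13 (adjusted p = 2.95e-07) and −2.42 ± 0.13 (adjusted p = 1.95e-08) against 0 h. Ndufaf4, which helps to build the ubiquinone module, had 65.6, 60.9 and 71.6 CPM at 0 h, 82.1, 73.4 and 80.5 at 4 h, 49.9, 57.9 and 46.9 at 24 h and 41.7, 42.9 and 50.1 at 48 h. It was thus above its 0 h libraries at 4 h and below them later (−0.36 ± 0.10 and −0.56 ± 0.10).

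Ndufaf5, which hydroxylates Ndufs7, was at −0.52 ± 0.12 at 48 h, and its partner Ndufaf8 at −0.28 ± 0.10. Ndufaf8 lost its call without 0 h replicate 2 (0.0773) or 3 (0.0925), 48 h replicate 2 (0.0652) or 3 (0.122), or the filter (0.0846). Ndufaf1 (0.08 ± 0.07), Ndufaf2 (−0.23 ± 0.13), Ndufaf3 (−0.02 ± 0.14) and Ndufaf7, a methyltransferase (−0.02 ± 0.10), did not pass the test. The complex IV subunit Ndufa4, first described in complex I, had 101, 115 and 116 CPM at 0 h, 105, 111 and 99.8 at 24 h and 82.1, 88.9 and 78.3 at 48 h. It was lower at 48 h (−0.41 ± 0.07). Its hypoxia-inducible paralogue Ndufa4l2 scattered too widely to be judged, at 32.1, 89.9 and 37.4 CPM at 0 h, 0.828, 2.11 and 90.5 at 24 h and 72.2, 20.3 and 17.4 at 48 h.

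**Figure D3:**
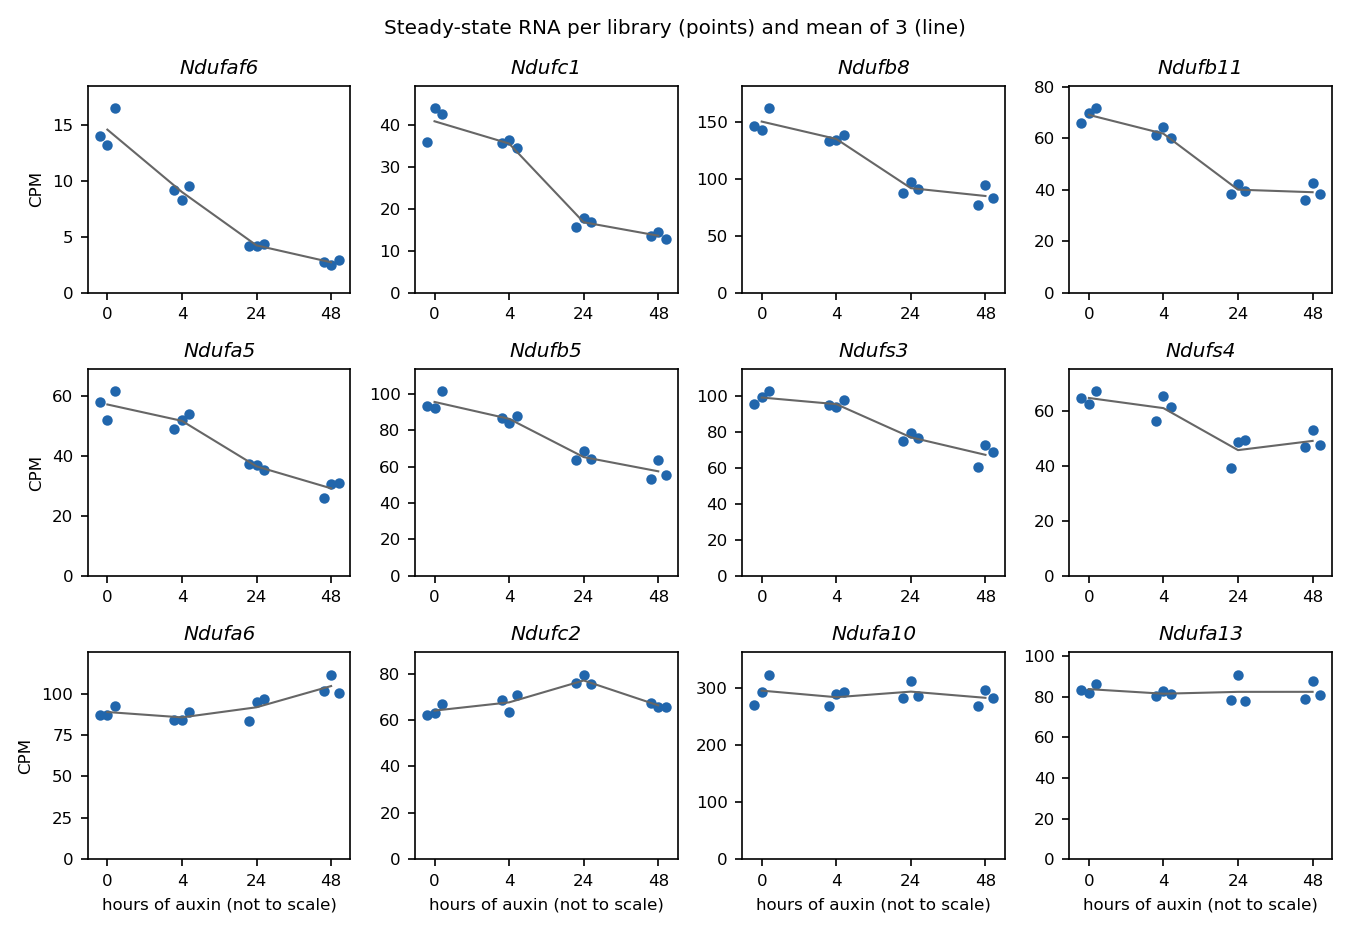
Steady-state RNA (CPM, vertical axes from 0) of 12 Nduf genes in each library at 0, 4, 24 and 48 h of auxin, with the mean of 3 as a line. Ndufaf6, Ndufc1, Ndufb8, Ndufb11, Ndufa5, Ndufb5, Ndufs3 and Ndufs4 fell, Ndufa6 was higher at 48 h, Ndufc2 was higher at 24 h, and Ndufa10 and Ndufa13 did not pass the test.

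Between 4 and 24 h 21 members fell and 2 rose, against 33.6% called (17.7% lower and 15.9% higher) of all genes tested, and between 24 and 48 h 4 fell and 0 rose, against 5.87% called (2.84% and 3.03%). Those lower at 48 h than at 24 h were Ndufaf6 (−0.64 ± 0.13), Ndufb2 (−0.43 ± 0.11), Ndufa4 (−0.34 ± 0.07) and Ndufa5 (−0.32 ± 0.09). At an unadjusted p under 0.05, 14 members were lower and 1 higher in this step, where 20% of all genes had such a p in either direction. DESeq2 called 7 members lower and 0 higher, and 4.55% of all genes lower and 5.15% higher. Leaving out 24 h replicate 2, 48 h replicate 1 or 48 h replicate 3 left 1 of the 4. Between 4 and 24 h the 21 fell to 14 without 24 h replicate 1, and the 2 to 0 without 24 h replicate 2 or 4 h replicate 2.

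The early nascent changes and the later steady-state levels, which share no library, followed a similar order across members. Over the 45 genes tested in both, the TT-seq log2 fold change at 4 h had a Pearson r of 0.90 and a Spearman rho of 0.84 with the RNA-seq value at 24 h, and of 0.84 and 0.67 with that at 48 h. With the RNA-seq value at 4 h they were 0.77 and 0.70. Without Ndufaf6 r was 0.63 at 4 h, 0.84 at 24 h and 0.71 at 48 h. These describe genes, which are not independent replicates, and both assays share the subline and the treatment. Of the 22 genes lower in TT-seq with the replicate term, 18 (81.8%) were lower at 24 h, where they made up 94.7% of the 19 lower among these 45 genes. At 48 h 19 of the 22 (86.4%) were lower, 63.3% of 30. The exceptions at 48 h were Ndufa1, Ndufaf3 and Ndufa4l2. Of all genes tested in RNA-seq, 21.5% were lower at 24 h and 24.6% at 48 h. The correlation and the overlap were not computed over all genes, so whether they are particular to the members was not tested.

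**Figure D4:**
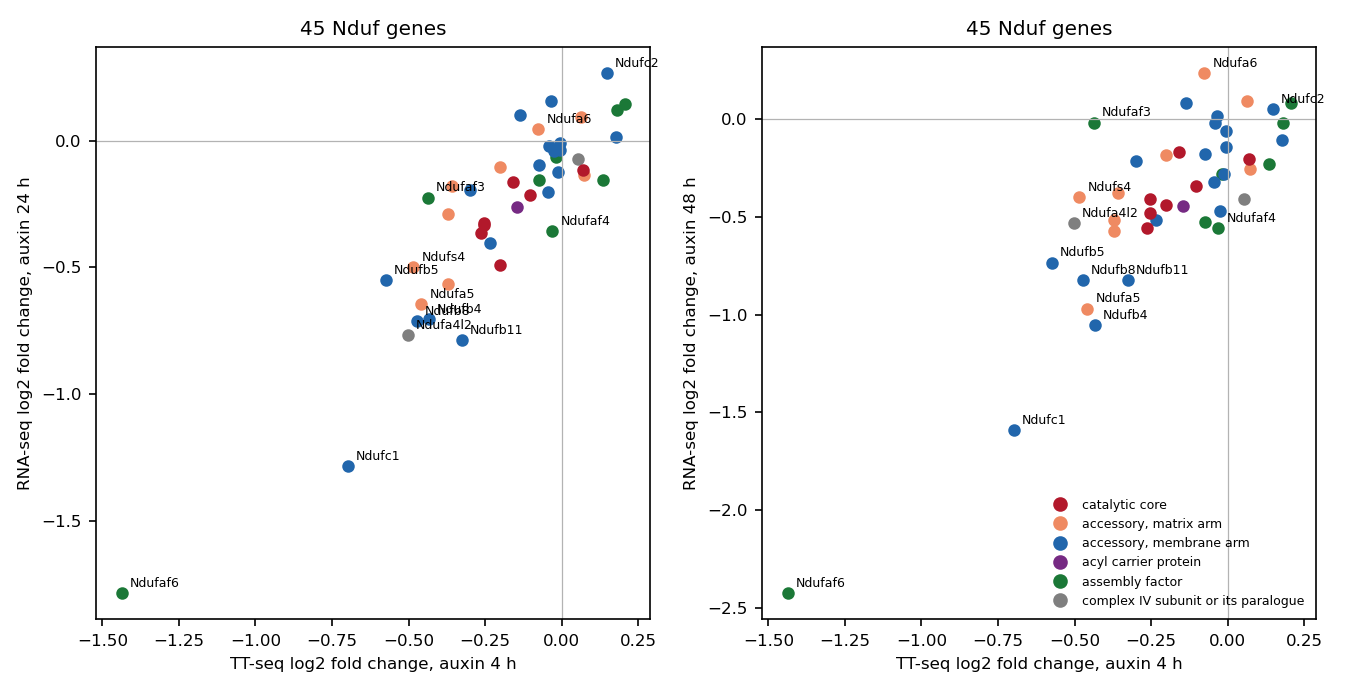
TT-seq log2 fold change after 4 h of auxin (horizontal) against the RNA-seq log2 fold change after 24 h (left) and 48 h (right) for 45 Nduf genes, coloured by role. Ndufaf6 and Ndufc1 lie farthest down in both panels, and Ndufc2 (left) and Ndufa6 (right) are highest.

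Promoters of the members were searched because many of them fell together after loss of a factor that binds DNA. Sequences from 250 bases before to 50 bases after the transcription start (RefSeq, build GRCm38.p6) were found for 42 members, 44 promoters in all, and not for Ndufa11b, Ndufa2, Ndufa4l2, Ndufaf6, Ndufb11b, Ndufb4c, Ndufb9, Ndufs1 and Ndufs6b, among others. The letters AANATGGC, which a YY1 site commonly contains, occurred on either strand in 14 of the 44 (31.8%), against 6.05% of 32851 promoters in the table. The 32851 include promoters of genes not tested here, so the 2 shares are not of like sets. Of genes tested in RNA-seq with a promoter in the table, 1030 held the letters and 8402 did not. Among members the letters were in 13 of 31 promoters of those lower at 48 h, in 1 of 12 of those not called (Ndufaf3) and in that of no higher gene. The site stretches below, with these letters in capitals, are those of members called lower in nascent RNA (Ndufb5, Ndufs4, Ndufa7), of 3 members whose steady-state RNA fell later (Ndufc1, Ndufb8, Ndufb11), of the core subunit Ndufs7 and of Ndufaf3, which was not called in RNA-seq. They were picked from the promoters that hold the letters, and those of Ndufa5, Ndufb4, Ndufv3 and Ndufaf4, which fell as well, hold none.
Ndufb5 upstream: tgcccttactaAACATGGCcgctcccacgg
Ndufb5 proximal: tgccctcactcAATATGGCctcctctagcg
Ndufs4: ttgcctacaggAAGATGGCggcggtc
Ndufa7: ggagcggaaggAATATGGCgtccgctactc
Ndufc1: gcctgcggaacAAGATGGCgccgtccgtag
Ndufb8: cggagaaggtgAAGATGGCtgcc
Ndufb11: gtcaccaacacAAAATGGCgacgagaagag
Ndufs7: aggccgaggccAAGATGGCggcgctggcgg
Ndufaf3: ggtttctccttAAAATGGCtccaagtctgg

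On GRCm38.p6 these stretches lie at chr3:32736827-32736856 and chr3:32736979-32737008 for Ndufb5, chr13:114388045-114388070 (minus strand) for Ndufs4 and chr17:33824616-33824645 for Ndufa7. The others are at chr3:51408915-51408944 (minus) for Ndufc1, chr19:44555393-44555415 (minus) for Ndufb8 and chrX:20617812-20617841 (minus) for Ndufb11. Ndufs7 has its stretch at chr10:80249462-80249491 and Ndufaf3 at chr9:108567495-108567524, the latter 2 on the plus strand like those of Ndufb5 and Ndufa7. The letters of Ndufc1, Ndufs7, Ndufs4 and Ndufb8 read AAGATGGC and begin at positions 23, 25, 36 and 39 counted from the transcript start, and whether they span the start codon was not tested. Those of Ndufa7 begin 18 bases upstream of the start (position −18) in its promoter at chr17:33824395-33824694. Its other promoter, at chr17:33824322-33824621, held no match. Whether the letters of Ndufa7 span a start codon was not tested either. The letters of Ndufb5 begin at positions −225 and −73. The same letters, at position −70, were found in Ndufaf3, whose steady-state RNA did not pass the test at any time, though its nascent RNA was lower with the replicate term (−0.44 ± 0.16).

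Over all genes tested with a promoter in the table, 20% of 986 genes with these letters were lower in TT-seq against 5.37% of 8032 without them, and 37.2% of 1030 against 28.2% of 8402 were lower in RNA-seq at 48 h. Higher calls were made for 3.35% with the letters against 2.07% without them in TT-seq, and for 22.1% against 27.1% at 48 h. Among the members 3 of 14 with the letters and 2 of 25 without them were lower in TT-seq, and 13 of 14 and 16 of 28 at 48 h. The median log2 fold change at 48 h was −0.42 with them and −0.24 without. The site of NRF1 was in 3 of 44 member promoters (0.971% of all), CCGGAAG, an ETS site, in 6 (8.86%) and GGGCGG, an SP1 site, in 22 (35.7%). These shares too cover all promoters, also those of genes not tested. A match is a description of letters in this window and was not tested as a site of binding.

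Among other genes of the pathway, falls outnumbered rises at 24 and 48 h in the further assembly factors and in complexes II to V. Of 13 further complex I assembly factors 4 were lower and 0 higher in TT-seq, 4 lower and 1 higher at 4 h of RNA-seq, 7 lower and 2 higher at 24 h and 7 lower and 1 higher at 48 h. The shares of all genes given above are 7.09% lower in TT-seq and 4.14%, 21.5% and 24.6% lower in RNA-seq at 4, 24 and 48 h. Dmac2, which acts in assembly of the distal membrane arm, was already lower at 4 h in TT-seq (−1.10 ± 0.17) and RNA-seq (−0.77 ± 0.17), and stood at −1.95 ± 0.18 at 48 h. Nubpl, which delivers iron-sulfur clusters, was at −0.60 ± 0.13, −0.33 ± 0.08 and −1.28 ± 0.09 in the same comparisons. Tmem126b, another of the 13, was at −1.16 ± 0.25, −0.57 ± 0.09 and −0.40 ± 0.09, whereas Sfxn4 rose at 24 and 48 h (1.37 ± 0.25 at both).

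Among 38 subunits of complexes II to V, 4 (10.5%) were lower in TT-seq, near the 7.09% of all genes tested, and 0 were called at 4 h. At 24 h 21 were lower and 1 higher, against 21.5% and 21.5% of all genes. At 48 h 29 of the 38 were lower and 1 higher, against 24.6% and 24.9%. The medians of the 38, −0.23 and −0.37 at 24 and 48 h, were close to those of the Nduf genes (−0.19 and −0.38). Uqcrc1, a core subunit of complex III, was at −1.15 ± 0.07 at 48 h, and Sdhc and Sdhd, the membrane anchors of complex II, at −0.80 ± 0.06 and −0.89 ± 0.05. The 7 complex I subunits encoded by mitochondrial DNA had a median of −0.12 at 48 h, where only mt-Nd1 passed the test (−0.28 ± 0.07) after a rise at 4 h (0.24 ± 0.07). Of the regulators of respiratory genes, Nrf1 was lower in TT-seq (−0.60 ± 0.11) and at 4 h (−0.60 ± 0.08). At 48 h Nrf1 did not pass the test (−0.07 ± 0.08), whereas Ppargc1b, a coactivator, was at −1.16 ± 0.20, and Tfb2m, which acts in mitochondrial transcription, at −0.75 ± 0.11.

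Without auxin no Nduf gene passed the test between the lines, in a fit that called almost no gene of any kind. By edgeR 0 of 42 members were called in each of the 3 comparisons (0%, 0% and 0.0826% of all genes tested in either direction), 0 had an unadjusted p under 0.05, and DESeq2 called 0. Subline 3 nevertheless had lower values than the parental line in 40 of 42 members (median −0.26) and than the other YY1-AID subline in 40 (median −0.27). The YY1-AID subline against the parental line had a median of 0.03.

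The spread between replicate numbers was larger than these differences. In all 3 lines 40 of 42 members were higher in replicate 1, by medians of 0.74 log2 units in the parental line, 0.74 in the YY1-AID subline and 0.48 in subline 3, while the medians over all genes tested were −0.00, 0.02 and 0.00. Ndufc1, for example, had 41.4 and 21.0 CPM in the parental line, 42.6 and 22.5 in the YY1-AID subline and 28.9 and 20.0 in subline 3 (replicates 1 and 2). Within replicate 1 subline 3 was lower than the parental line in 40 members (median −0.39), and within replicate 2 in 29 (median −0.08). With 2 libraries a group, the median of subline 3 against the parental line was 0.14 without parental replicate 1 (4 of 42 members below 0), −0.60 without parental replicate 2, −0.49 without subline 3 replicate 1 and −0.07 without its replicate 2. Each of these leaves unequal replicate numbers in the groups. With the replicate number as a term the median was −0.23, with 40 of 42 members below 0 and 16 at an unadjusted p under 0.05. That fit called 0 members and 6.24% of all genes tested at an adjusted p under 0.05. The share of all genes at such an unadjusted p was not counted, so the 16 is not read as a trait of the members.

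**Figure D5:**
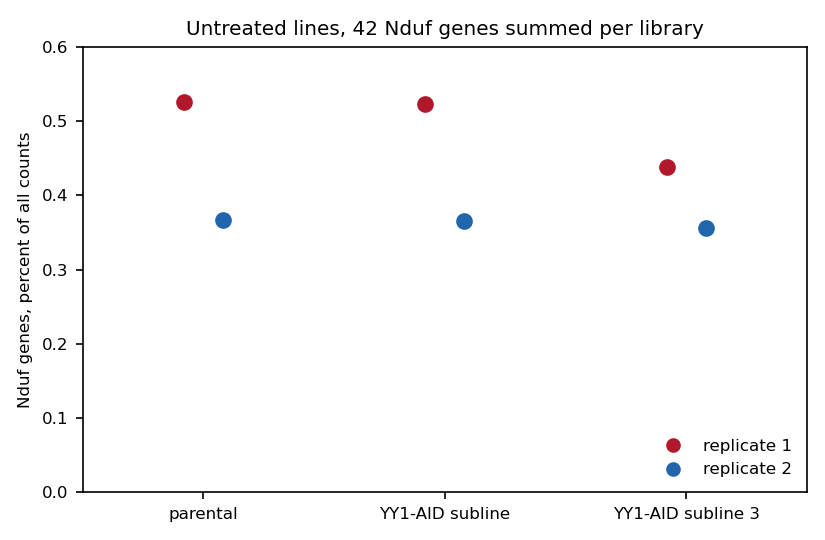
Summed share of counts (percent, vertical axis from 0) of the 42 Nduf genes in each library of the untreated lines, coloured by replicate number. Replicate 1 libraries sit at 0.438% to 0.525% and replicate 2 libraries at 0.356% to 0.367%.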

How the data were processed

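For RNA-seq the authors deposited estimated counts by gene symbol, written as whole numbers. Salmon 0.13.1, DESeq2 and build mm9 are named, per the submitters' processing notes. For TT-seq the authors deposited whole read counts, 1 table for mouse and 1 for a Drosophila spike-in, with Trim Galore 0.6.10, STAR, SAMtools, mm9 and dm6 named in the same notes. Not given in the sources used here: transcript set, strand setting, counting of introns. Lines naming no gene stayed out: reads on no feature made up 17.2% to 22.2% of the TT-seq libraries and ambiguous ones 0.391% to 0.529%.

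Each table was fitted whole in edgeR 4.0.16 under R 4.3.3: filterByExpr on the groups, TMM factors, quasi-likelihood F-tests and Benjamini-Hochberg adjustment over all genes tested (threshold 0.05), all groups in 1 fit without a replicate term. The fit was first tested on simulated data. There it called 47% of changes of 0.5 log2 units at 48 h of RNA-seq and 20.6% in TT-seq. For changes of 1 log2 unit it called 63.9% and 82.7%. A gene not called may thus have changed. CPM use TMM library sizes. Alternatives were DESeq2 1.42.0 and its size factors, no filter, a replicate term, spike-in sizes, summed Ndufb4 copies and leaving out libraries.

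Replicate numbers pair the TT-seq libraries: deviations from group means correlated at 0.51 to 0.78 within a number and at most at −0.08 between numbers, a pairing seen in the values that no label states. Between the lines kept without auxin, with 2 libraries a group, the same-number correlations were 0.79 to 0.86. Members, gene lists and motifs were chosen with earlier results of these data known. Values per library are given for members past the threshold at 4 h and, at 24 and 48 h, for the 6 highest and 6 lowest past it whose average log2 CPM reached 3, and other members may be named. 1 member is counted but not reported singly here. Up to 4 genes per further list are named by smallest p. Peak and loop lists are in mm9 and were not joined to genes. Figures were drawn with matplotlib.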

Additional observations from a re-analysis of the deposited data

Results flagged for a closer look

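The change against 0 h differed between time points for 26 results, each by the test of the later against the earlier libraries (edgeR, adjusted over all genes tested). Of all genes tested 33.6% were called between 4 and 24 h and 5.87% between 24 and 48 h. The 24 h level was below the 4 h level, in log2 units, for Ndufaf6 (−1.09), Ndufc1 (−1.08), Ndufb4 (−0.66), Ndufb4c (−0.64), Ndufb11 (−0.63), Ndufaf4 (−0.61), Ndufb8 (−0.56) and Ndufa5 (−0.50). Further genes lower at 24 h than at 4 h were Ndufs4 (−0.42), Ndufb5 (−0.40), Ndufs7 (−0.34), Ndufa3 (−0.32), Ndufs3 (−0.31), Ndufv3 (−0.31), Ndufs6 (−0.29), Ndufv2 (−0.25), Ndufab1 (−0.24), Ndufb1 (−0.23) and Ndufa7 (−0.20). Ndufb4b had a fitted value of −8.74, which depends on the prior count because its 24 h libraries are at 0. Levels were higher at 24 h than at 4 h for Ndufaf1 (0.19) and Ndufc2 (0.19). From 24 to 48 h Ndufaf6 (−0.64), Ndufb2 (−0.43), Ndufa4 (−0.34) and Ndufa5 (−0.32) fell further. Of the calls between 4 and 24 h, 13 of 23 kept their call in every alternative, and of the 4 between 24 and 48 h that of Ndufaf6 alone did. Without 24 h replicate 1 the value was −0.18 for Ndufv3 (adjusted p = 0.21, edgeR) and −0.19 for Ndufs6 (adjusted p = 0.176). Calls of Ndufa3, Ndufa7, Ndufab1, Ndufaf1, Ndufb1, Ndufc2 and Ndufs7 between 4 and 24 h, and of Ndufa4, Ndufa5 and Ndufb2 between 24 and 48 h, were also lost when 1 of the libraries was left out.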

How the results depend on the processing

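No called member changed sign in any alternative run. The call of Ndufaf6 at 4, 24 and 48 h in RNA-seq held in all 11 alternatives at each time, and of the members called in RNA-seq 20 of 23 at 24 h and 27 of 34 at 48 h kept their call in every one. In TT-seq none of the 6 kept it in all 13, since spike-in sizes alone ended every call (0 lower). The replicate block gave 22 lower and 2 higher in TT-seq, spike-in sizes with the block 21 lower, and leaving out replicate 1 of both groups 2 lower. In the time series, where same-numbered libraries did not deviate together (−0.10 to 0.17), the replicate block gave 2 higher at 24 h, and the count of 4 lower from 24 to 48 h became 7 with DESeq2. Without a filter on low counts the 2 higher from 4 to 24 h became 0. Leaving out 1 library gave 2 to 4 lower in TT-seq, 19 to 25 lower at 24 h, 27 to 34 lower and 0 to 1 higher at 48 h, 14 to 23 lower and 0 to 2 higher from 4 to 24 h, and 1 to 4 lower and 0 to 1 higher from 24 to 48 h. The causes were not tested. In the untreated lines the replicate block left 0 of 42 members called (lowest adjusted p = 0.0533 for subline 3 against the parental line, 16 at an unadjusted p under 0.05). How many of all genes had such an unadjusted p with the block was not counted. Counts over all genes also moved by over 1.5 times. In TT-seq 237 higher and 795 lower became 2541 and 2833 with the block, 1 and 0 with spike-in sizes, 1128 and 2411 with both, 70 and 467 without replicate 1 of both groups, and 54 to 172 and 375 to 701 without 1 library. At 4 h of RNA-seq 476 higher and 627 lower became 206 to 248 and 397 to 483 without 1 library, and DESeq2 called 1050 lower. From 24 to 48 h 459 higher and 430 lower became 781 and 690 with DESeq2 and 213 to 352 and 164 to 375 without 1 library. In the untreated lines, with 0 to 9 genes called, the block called 177 higher and 261 lower for the YY1-AID subline against the parental line, 457 and 223 for subline 3 against the parental line and 483 and 190 for subline 3 against the YY1-AID subline. DESeq2 called 61 and 133, 98 and 56, and 167 and 41 in the same order, and without the filter the counts were 7 and 27, 1 and 0, and 28 and 2. Without 1 library the last comparison had 0 to 1 higher, against 9.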
